A study of Mus musculus with 9 samples.

Results

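The 10 genes described here write, copy, protect or remove 5-methylcytosine, the methyl mark on DNA. They were chosen by name, and all 10 have a row in the table of 24228 genes analysed. Dnmt3a and Dnmt3b encode the de novo methyltransferases, and Dnmt3l encodes their catalytically inactive cofactor. Dnmt1 encodes the maintenance methyltransferase, and Uhrf1 the protein that brings it to hemimethylated DNA. Tet1, Tet2 and Tet3 encode dioxygenases that oxidise 5-methylcytosine. Dppa3, also called Stella or PGC7, encodes a maternal factor that keeps the maternal genome from TET3-dependent oxidation, and Zfp57 encodes a KRAB zinc finger protein that holds methylation at imprinted regions after fertilization.

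In growing mouse oocytes DNMT3A and DNMT3L lay down the maternal methylation pattern, imprints included, before the oocyte reaches full size. DNMT1 is kept largely outside the nucleus there, in part through the STELLA protein acting on UHRF1, and TET3 is the TET enzyme that the egg brings to the zygote. A fully grown oocyte makes little new RNA, and its stored transcripts serve the first days of the embryo.

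The oocytes sequenced were fully grown and still had their germinal vesicle. They were taken from large antral follicles of C57BL/6 females 46 h after an injection of 5 IU PMSG, a hormone that stimulates follicles. The 3 groups, with 3 libraries each, were wild type (WT), oocyte-conditional Mtor knockout by Gdf9-Cre (MG) and oocyte-conditional Mtor knockout by Zp3-Cre (MZ). Each Cre is driven by the promoter of an oocyte gene, that of Gdf9 being switched on earlier than that of Zp3. The MTOR kinase governs translation and cell growth. The labels give an age of 6 months and the series design one of 23 days, and neither says how many animals or oocytes made up a library or whether WT females carried the unrecombined Mtor allele. The tests below thus rest on the spread among libraries, part of which may be technical.

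The level of Mtor was 3.25, 3.33 and 2.95 FPKM (sequenced fragments normalised for transcript length and scaled per library) in WT, compared with 5.25, 6.00 and 4.64 in MG and 6.55, 4.67 and 4.39 in MZ. It was above every WT library in all MG and MZ libraries, the opposite of a loss. The difference did not pass in the test described below (limma adjusted p = 0.36 for MG and 0.80 for MZ against WT). The FPKM of the gene also counts fragments outside the deleted part and is no check of the deletion. The names MG and MZ thus mean the libraries that carry those labels. One fragment in a 1 kb transcript was worth between 1.31 FPKM (MG 3) and 2.35 FPKM (MZ 1), and about 539000 to 969000 fragments per library fell in annotated genes. These estimates did not run in step: MG 3 had about 809000 fragments, while MZ 2 had 969000 at 1.51 FPKM per fragment. The deposited scaling thus did not follow the fragment number alone. The FPKM of a library summed to 652537 ± 67110 in WT, 498936 ± 64355 in MG and 670216 ± 10778 in MZ (SD, n = 3 each), and every MG sum was below every other. All 12 oocyte markers were above 0 in every library. Their summed level was 11779 FPKM in MG 3 and 21826 to 29131 FPKM in the other libraries. Gdf9 held most of this sum (7327 FPKM in MG 3). In MG 3 Kit (63.8 FPKM) was above all WT libraries and Nlrp5 (943.6 FPKM) within the WT range. Each of the other markers was below all WT libraries there. The 17 granulosa and cumulus markers summed to 22.0 to 35.4 FPKM in WT, 24.2 to 42.6 in MG and 23.1 to 28.3 in MZ, with 5 to 13 of them at 0 and Foxl2 and Lhcgr at 0 in every library. Cyp19a1 held most of the WT sum (means 22.6 FPKM in WT, 13.1 in MG and 14.6 in MZ), and the mean of Fshr was also lower in MG. Kitl (0.63, 4.30 and 2.88) and Nr5a2 (1.17, 4.17 and 2.87) went the other way. Alike sums thus do not mean alike somatic signal. The 11 theca, stroma, blood and vessel markers summed to 23.2 to 36.1 FPKM in WT, 25.7 to 43.2 in MG and 16.3 to 45.7 in MZ. FPKM is a relative level within a library and holds no measure of RNA yield per cell. It cannot tell fewer transcripts of a gene per cell from a change in other transcripts or in the scaling of the library.

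Sequence at the start sites is shown first, because the table gives 1 level per gene while several of these genes have more than 1 annotated start. RefSeq windows of 300 bases (250 before to 50 after a start, GRCm38.p6) were found for 9 of the 10 genes, 18 windows in all. Windows are shown for Dnmt1, Dnmt3l and Zfp57, the genes that the authors' deposited table lists under a q-value of 0.05 in at least 1 comparison. Capitals mark CpG, the dinucleotide that these enzymes methylate.
Dnmt1, upstream start, chr9:20959839-20960138, minus strand: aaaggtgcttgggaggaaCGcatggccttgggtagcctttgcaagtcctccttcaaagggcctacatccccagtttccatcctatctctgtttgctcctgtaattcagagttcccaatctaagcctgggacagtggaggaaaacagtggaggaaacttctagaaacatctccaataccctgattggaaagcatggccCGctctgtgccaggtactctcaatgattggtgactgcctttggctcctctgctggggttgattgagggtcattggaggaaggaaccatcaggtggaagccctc
Dnmt1, downstream start, chr9:20952574-20952873, minus strand: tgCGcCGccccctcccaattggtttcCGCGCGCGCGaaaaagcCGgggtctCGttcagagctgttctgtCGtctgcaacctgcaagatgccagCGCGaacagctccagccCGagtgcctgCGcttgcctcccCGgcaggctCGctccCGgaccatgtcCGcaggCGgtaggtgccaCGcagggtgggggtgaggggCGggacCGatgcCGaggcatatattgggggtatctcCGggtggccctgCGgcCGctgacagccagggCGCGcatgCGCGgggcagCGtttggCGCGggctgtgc
Dnmt3l, upstream start, chr10:78042037-78042336, plus strand: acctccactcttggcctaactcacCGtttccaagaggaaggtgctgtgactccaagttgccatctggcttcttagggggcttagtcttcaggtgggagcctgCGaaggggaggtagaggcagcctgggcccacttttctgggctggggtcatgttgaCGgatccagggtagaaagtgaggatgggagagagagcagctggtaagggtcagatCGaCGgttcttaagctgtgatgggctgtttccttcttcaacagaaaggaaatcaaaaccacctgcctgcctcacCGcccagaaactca
Zfp57, middle start, chr17:37002275-37002574, plus strand: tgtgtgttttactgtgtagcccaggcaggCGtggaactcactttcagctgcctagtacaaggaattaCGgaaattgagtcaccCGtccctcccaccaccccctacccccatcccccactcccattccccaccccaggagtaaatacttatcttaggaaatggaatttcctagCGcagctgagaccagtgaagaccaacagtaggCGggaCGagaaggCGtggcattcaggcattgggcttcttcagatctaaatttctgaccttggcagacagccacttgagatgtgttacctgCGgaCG

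The windows differed widely in CpG. The upstream Dnmt1 window held 2 CpG and the downstream one 33, with the upstream start 6909 bp before the next start, whose window held 12. Of 32851 windows of the same length in the RefSeq table, 85.9% held at least 2 CpG and 8.56% at least 33, and the median was 7. Dnmt1 is known to use an oocyte promoter beside its somatic one, and the FPKM of the gene does not separate them. The 3 Dnmt3l windows held 6, 4 and 3 CpG and the 3 Zfp57 windows 6, 9 and 4. The upstream Dnmt3l window lies inside the neighbouring gene Aire, which is transcribed from the opposite strand, and Dnmt3l is known to use an oocyte promoter within Aire. The single windows of Tet2 (57 CpG) and Dnmt3b (30 CpG) and the 2 upstream windows of Dnmt3a (46 and 47 CpG) were CpG-rich by comparison. These are counts in annotated windows and say nothing of which start the oocytes used.

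In WT oocytes the 10 genes spanned from among the most abundant transcripts to barely detected ones. Dppa3 (chr6:122626410-122630272, GENCODE M21, GRCm38) was at 6532.5, 6629.5 and 7877 FPKM in WT 1, WT 2 and WT 3, which made it the 9th to 11th most abundant gene of those libraries. Zfp57 (chr17:37001163-37010635) followed with 4630.2, 2509 and 2935 FPKM, ranks 18 to 31. These levels of the protectors of methylation lay far above those of every enzyme in the set.

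A middle tier held the cofactors, the maintenance enzyme and one TET. Dnmt3l (chr10:78041947-78063622) had 144, 112 and 176 FPKM. Uhrf1 (chr17:56303321-56323486) had 170.4, 129.7 and 106.6 FPKM, and Tet3 (chr6:83362373-83459084) 123, 74.1 and 40.4. Dnmt1 (chr9:20907209-20959888) had 103.6, 76.8 and 43.6 FPKM. The ranges of neighbours in this order overlapped in WT. Within libraries Uhrf1 was nonetheless above Tet3 in all 3 WT libraries, and in all 9 libraries of the series, while Dnmt3l was above Uhrf1 and Tet3 above Dnmt1 in 1 of 3 WT libraries each. In each of the 3 genes Uhrf1, Tet3 and Dnmt1 the highest WT value was in WT 1 and the lowest in WT 3, whereas Dnmt3l and Dppa3 were highest in WT 3. The WT spread of Tet3 (coefficient of variation 52.5%) and Dnmt1 (40.3%) was several-fold that of Dppa3 (10.7%), and it limits what the comparisons with WT can show.

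The catalytic de novo enzymes were low. Dnmt3a (chr12:3806007-3914443) had 8.59, 8.51 and 6.42 FPKM in WT, below every value of Dnmt1 and above every value of Dnmt3b. Dnmt3b (chr2:153649450-153687730) had 1.96, 0.54 and 0.56 FPKM, resting on about 6.2 fragments over the 3 WT libraries. Tet1 (0.13, 0.87 and 0.45 FPKM) and Tet2 (0.41, 0 and 0.23 FPKM) were lower still, on about 9.4 and 2.7 fragments, and in WT 2 Tet2 was listed at 0. Dnmt3b overlapped with Tet1, its lower neighbour in the order, and Tet1 overlapped with Tet2.

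**Figure D1:**
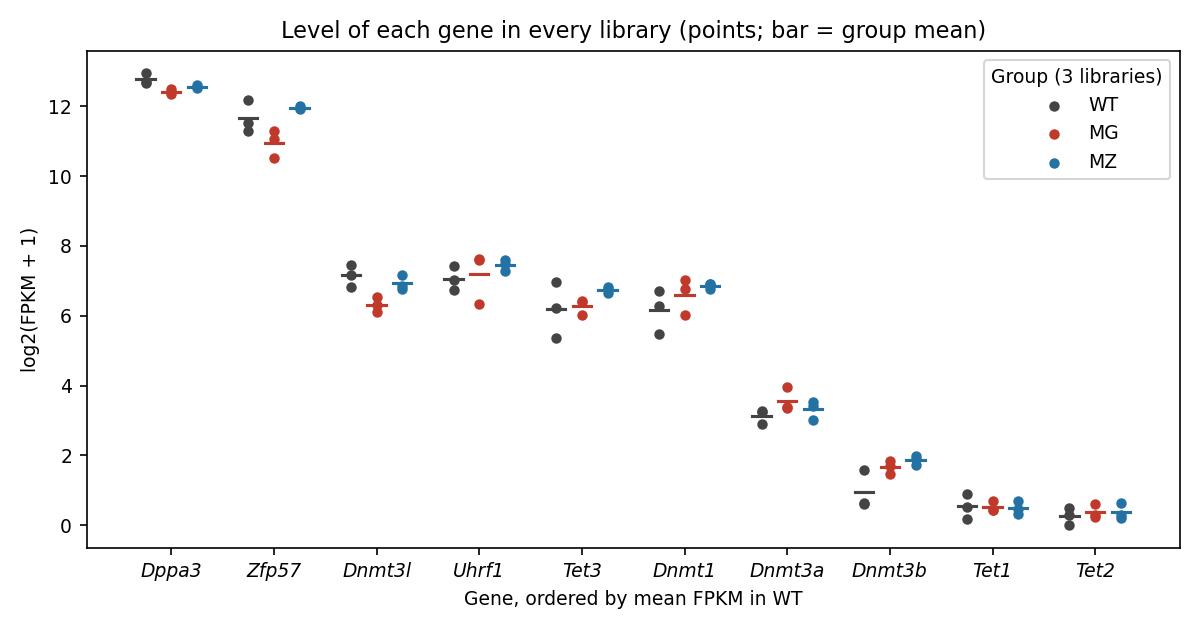
Level of the 10 genes in every library, as log2(FPKM + 1) on the vertical axis, with genes ordered by their WT mean. Points are libraries (WT dark grey, MG red, MZ blue, 3 each) and short bars are group means of the log2 values. Dppa3 and Zfp57 sit at the top, 4 genes form a middle tier between 40.4 and 195.5 FPKM, and Dnmt3a, Dnmt3b, Tet1 and Tet2 lie below.

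The tiers held in all 3 groups. Dppa3 and Zfp57 were the first and the second of the set in all 9 libraries, and Dnmt3a was seventh in each. Within the middle tier the order was not the same. Dnmt3l was above Dnmt1 in all 3 WT libraries but above it in only MG 3 of the MG libraries, and in MZ 1 and MZ 3. Dnmt3b was above Tet1 in every MG and MZ library. Tet1 was at 0.61, 0.35 and 0.34 FPKM in MG and 0.62, 0.39 and 0.24 in MZ. Tet2 was at 0.23, 0.18 and 0.53 FPKM in MG and 0.24, 0.15 and 0.56 in MZ. Both genes were under 1 FPKM in every library, so they did not pass the filter on low values (FPKM of at least 1 in at least 3 libraries) and differences in them were not detectable at this depth.

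The other 8 genes were tested. The test was limma on log2(FPKM + 1) over 10801 genes with all 9 libraries in 1 fit. A gene was called at a Benjamini-Hochberg adjusted p under 0.05. The 3 comparisons share groups, so their values for a gene are not independent.

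In MG (Gdf9-Cre) the 2 tested genes with the most negative fold change against WT were the cofactor Dnmt3l and the imprint protector Zfp57. Dnmt3l was at 78.2, 91.1 and 67.3 FPKM in MG, below all WT libraries, with a WT mean 1.83 times the MG mean. Its log2 fold change was -0.85 ± 0.21 (SE; adjusted p in limma = 0.11) with a single-gene 95% interval of -1.32 to -0.38. Zfp57 was at 2487, 2143 and 1476 FPKM in MG, with a log2 fold change of -0.70 ± 0.26 (SE; adjusted p in limma = 0.20). The highest MG value of Zfp57 was only just under the lowest WT value, 2509 FPKM.

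Dppa3 was at 5454, 5765 and 5218 FPKM in MG, also below all WT libraries, with a log2 fold change of -0.35 ± 0.17 (SE; adjusted p in limma = 0.33). As a share of the FPKM sum it was 0.91% to 1.20% in WT and 0.98% to 1.22% in MG. With libraries scaled to the same FPKM sum its log2 fold change was 0.04, and with quantile normalization it was 0.36, so its direction depended on the scaling. Scaling to the same sum moved the median of all tested genes from 0.04 to 0.36. On that scale Dnmt3l was at -0.46 and Zfp57 at -0.31, still below 0 and below that median, but Zfp57 then overlapped WT and neither passed (limma adjusted p = 0.21 and 0.31). With quantile normalization Dnmt3l was at -0.61 and Zfp57 at -0.16 (limma adjusted p = 0.22 and 0.70).

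The methyltransferases themselves had positive fold changes and did not pass. Dnmt3a was at 9.19, 9.55 and 14.4 FPKM in MG, above all WT libraries, with a log2 fold change of 0.43 ± 0.30 (SE; adjusted p in limma = 0.48). Dnmt1 was at 128.9, 107.8 and 64.6 FPKM and Dnmt3b at 2.27, 1.76 and 2.55, and both overlapped WT. Scaled to the same FPKM sum neither overlapped WT. On that scale Dnmt1 ran from 91.6 to 141.2 in MG and 40.5 to 87.5 in WT, with a log2 fold change of 0.84 in place of 0.45 (limma adjusted p = 0.13 and 0.50). Dnmt3b ran from 2.07 to 3.61 in MG and 0.52 to 1.66 in WT, with 0.99 in place of 0.72 (limma adjusted p = 0.20 and 0.37). The locus of Dnmt3a holds the antisense gene Dnmt3aos, and the deposited locus of Dnmt3l spans Aire as well. The RNA was amplified by Smart-seq2, and no source used here states a strand-specific step. Fragments of these pairs are thus not taken to be told apart by strand.

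Uhrf1 (195.5, 193.1 and 80.0 FPKM in MG) and Tet3 (84.7, 83.3 and 64.6 FPKM) overlapped WT. Their single-gene 95% intervals on the log2 scale ran from -0.59 to 0.82 and from -0.62 to 0.81, which leaves room for changes of more than 1.5-fold either way. MG 3 had the lowest MG value in 7 of the 10 genes, Uhrf1, Tet3, Dnmt1 and Zfp57 among them, but the highest of Dnmt3a and Dnmt3b. Without MG 3, the library with the low oocyte marker sum, Dnmt3l was at -0.74 (limma adjusted p = 0.20) and Zfp57 at -0.49 (limma adjusted p = 0.37).

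In MG against WT 0 of the 8 tested genes were called by limma, where 0.343% of all tested genes were (37 genes: 20 higher, or 0.185%, and 17 lower, or 0.157%). With libraries scaled to the same sum 61 of 66 calls were higher, with quantile normalization 16 of 21 and with upper quartile scaling 20 of 27. At an unadjusted p under 0.05 there were 2 of 8, both lower (Dnmt3l and Zfp57), where the share over all tested genes was 17.7% in either direction, 9.31% lower and 8.43% higher. Groups did not overlap for 3 of 8 genes lower in MG (9.89% of all tested genes) and 1 of 8 higher (11.6%, or 21.5% in either direction). The median log2 fold change of the 8 was 0.11, with 5 positive and 3 negative, and that of all tested genes 0.04. The authors' deposited table lists 1 of the 8 with q under 0.05, Dnmt3l (q = 0.019, log2 fold change -0.88), and 4.13% of the tested genes. In all 3 comparisons Dnmt3a and Dnmt3b had no informative p in that table, so they could not be among those listed. The share over the tested genes likewise includes such genes.

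**Figure D2:**
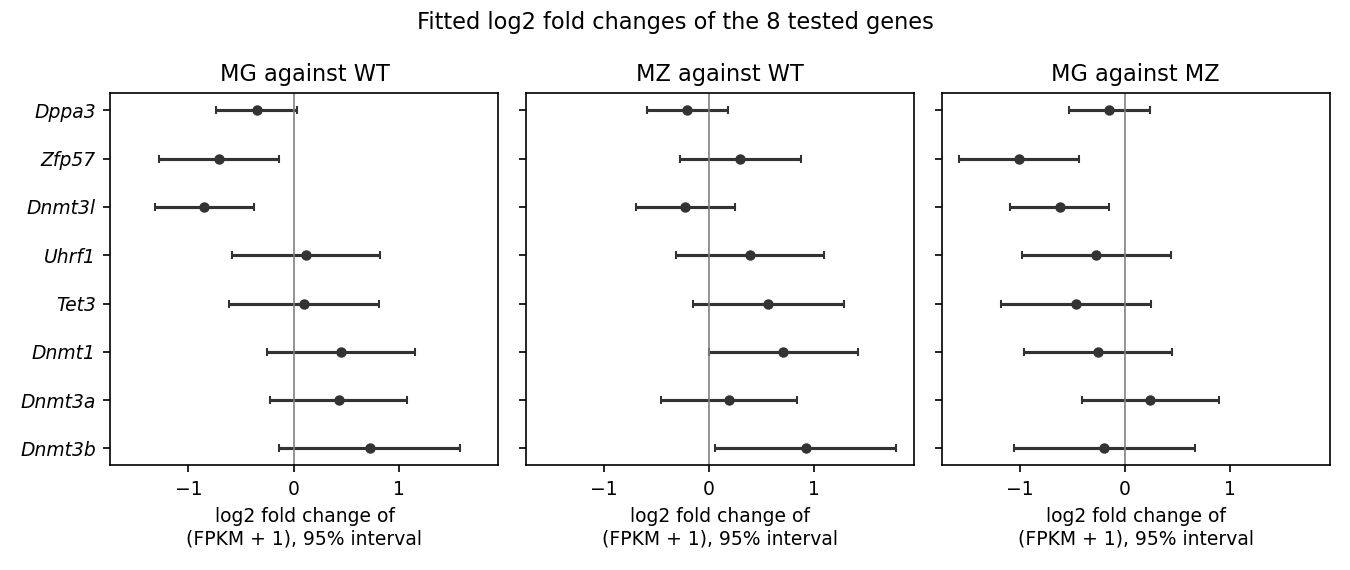
Fitted log2 fold change of (FPKM + 1) for the 8 tested genes (points) with single-gene 95% intervals (bars), 1 panel per comparison. The intervals of Dnmt3l and Zfp57 lie below 0 in both comparisons with MG, the widest intervals are those of Dnmt3b, and 0 of the 8 genes pass after adjustment over all tested genes.

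In MZ (Zp3-Cre) the largest differences from WT were positive, in the maintenance enzyme Dnmt1 and in Dnmt3b. Dnmt1 was at 118.8, 119.4 and 108.2 FPKM in MZ, above all WT libraries, with a mean 1.55 times that of WT. Its log2 fold change was 0.71 ± 0.32 (SE; adjusted p in limma = 0.78), and the authors' deposited table lists q = 0.036. The MZ libraries lay within a narrow band (SD 6.28 FPKM) while the WT libraries did not (SD 30.1 FPKM). Without WT 3, which had 43.6 FPKM, the log2 fold change of Dnmt1 was 0.37 (limma adjusted p = 0.99).

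Uhrf1 (191.8, 155.9 and 178.0 FPKM in MZ) and Tet3 (112.3, 100.4 and 107.1 FPKM) overlapped WT, with log2 fold changes of 0.39 and 0.56. Dnmt3b was at 2.28, 2.92 and 2.72 FPKM, above all WT libraries, but it rests on about 18.9 fragments in MZ and did not pass (log2 fold change 0.92 ± 0.39 SE; adjusted p in limma = 0.76). Dnmt3a was at 9.76, 7.01 and 10.6 FPKM and overlapped WT.

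Of the genes lower in MG, Zfp57 was not lower in MZ. It was at 3995, 3882 and 4082 FPKM there, within the WT range. Dnmt3l was at 142.9, 107.9 and 114.2 FPKM and overlapped WT (log2 fold change -0.23, limma adjusted p = 0.89). Dppa3 was at 5866, 6301 and 6009 FPKM, below all WT libraries, with a log2 fold change of -0.21 ± 0.17 (SE; adjusted p in limma = 0.89).

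In MZ against WT 0 of the 8 genes were called by limma, where 0.037% of all tested genes were (0.0278% higher and 0.00926% lower). At an unadjusted p under 0.05 there were 2 of 8, both higher (Dnmt1 and Dnmt3b), where the share over all tested genes was 6.3% in either direction, 2.68% higher and 3.62% lower. Groups did not overlap for 2 of 8 genes higher in MZ (5.67% of all tested genes) and 1 of 8 lower (6.52%, or 12.2% in either direction). The median log2 fold change of the 8 was 0.34, with 6 positive and 2 negative, beside 0.01 over all tested genes. The authors' deposited table lists 1 of the 8 with q under 0.05 (Dnmt1) and 0.787% of the tested genes.

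MG was then set against MZ, the libraries of 1 Cre label against those of the other. Zfp57 had the smallest p of the set. All its MG values (1476 to 2487 FPKM) lay below all its MZ values (3882 to 4082 FPKM), and the MZ mean was 1.96 times the MG mean. The log2 fold change was -1.0 ± 0.26 (SE; adjusted p in limma = 0.088), with a single-gene 95% interval of -1.57 to -0.43. It passed in 1 of 18 alternative fits, the one without WT 1 (limma adjusted p = 0.045), and the adjusted p ranged from 0.045 to 0.31 over these fits. Without MG 3 the value was -0.79 (limma adjusted p = 0.19). Scaled to the same FPKM sum it was -0.57 and with quantile normalization -0.36 (limma adjusted p = 0.093 and 0.31). The authors' deposited table lists q = 0.0023.

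Dnmt3l was lower in MG than in MZ by -0.62 ± 0.21 on the log2 scale (SE; adjusted p in limma = 0.16), with no overlap between the groups. Scaled to the same FPKM sum its value was -0.19 and the groups overlapped. Tet3 also showed no overlap, with 64.6 to 84.7 FPKM in MG and 100.4 to 112.3 in MZ (log2 fold change -0.46 ± 0.33 SE; adjusted p in limma = 0.50), but scaled to the same sum the difference was -0.03. Dppa3 had no overlap either (-0.15, limma adjusted p = 0.72), and its sign turned with that scaling (0.29) and with quantile normalization (0.56).

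Of the other tested genes Dnmt1, Uhrf1, Dnmt3b and Dnmt3a overlapped between MG and MZ. In this comparison 0 of the 8 genes were called by limma, where 0.13% of all tested genes were (14 genes: 8 higher, or 0.0741%, and 6 lower, or 0.0556%). Scaled to the same sum 25 of 31 calls were higher, and with quantile normalization 9 of 13. At an unadjusted p under 0.05 there were 2 of 8, both lower (Zfp57 and Dnmt3l), where the share over all tested genes was 17.6% in either direction, 9.32% lower and 8.32% higher. Groups did not overlap for 4 of 8 genes, each lower in MG (12.3% of all tested genes, beside 12.8% higher and 25.2% in either direction). The median of the 8 was -0.26, with 1 positive and 7 negative, beside 0.04 over all tested genes, and scaled to the same sum it was 0.14 beside 0.39. The authors' deposited table lists 2 of the 8 with q under 0.05 (Zfp57, and Dnmt3l with q = 0.032) and 9.05% of the tested genes.

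**Figure D3:**
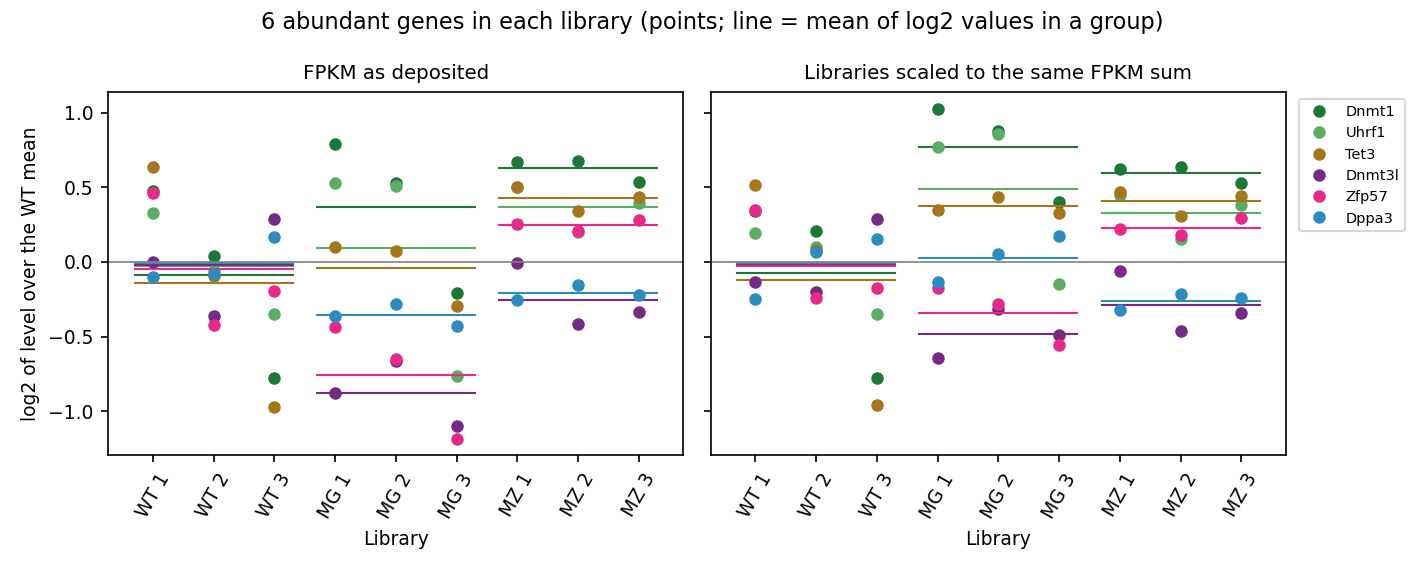
The 6 most abundant of the 10 genes in each of the 9 libraries, as log2 of the level over the WT mean, from FPKM as deposited (left) and after scaling each library to the same FPKM sum (right). Points are libraries and lines are group means of the log2 values. Dnmt3l and Zfp57 lie below 0 in all MG libraries in both panels, Dppa3 lies below 0 in all 3 MG libraries on the left but in only MG 1 on the right, and Dnmt1, Uhrf1 and Tet3 are low together in WT 3.

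A ratio of the FPKM of 2 genes in 1 library does not depend on a single scaling factor per library. Quantile normalization can change it. The test of a ratio used log2(FPKM + 1), which for low genes depends on such a factor too. With quantile normalization the log2 fold changes in MG against WT were -0.61 for Dnmt3l, 0.33 for Dnmt3a, -0.16 for Zfp57 and 0.68 for Dnmt1. As deposited they were -0.85, 0.43, -0.70 and 0.45. The ratios were not tested after that normalization. They combine levels given above and so are not separate evidence. How often other pairs of genes fail to overlap was not computed. The ratio of Dnmt3l, the cofactor, to Dnmt3a, the catalytic partner it assists, was 16.8, 13.2 and 27.4 in WT, compared with 8.51, 9.53 and 4.67 in MG and 14.6, 15.4 and 10.8 in MZ. Every MG ratio lay below every WT and every MZ ratio. The difference in log2 ratio was -1.28 for MG against WT and -0.86 for MG against MZ (p = 0.1 for each in a two-sided exact permutation test on log2(FPKM + 1), the smallest that 3 against 3 libraries allow; adjusted p = 0.3 over 15 tests). With no pseudocount these differences were -1.33 and -0.89, with the same p.

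The ratio of Zfp57 to Dnmt1 was 44.7, 32.7 and 67.3 in WT, compared with 19.3, 19.9 and 22.8 in MG and 33.6, 32.5 and 37.7 in MZ, again with MG below the other groups in every library. The differences in log2 ratio were -1.16 against WT and -0.75 against MZ (p = 0.1 for each in the same exact test, adjusted p = 0.3). This ratio was closer among the MG libraries than the levels of either gene, which were lowest in MG 3 for both.

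The ratio of Uhrf1 to Dnmt1, the targeting protein to its enzyme, was 1.64, 1.69 and 2.45 in WT, compared with 1.52, 1.79 and 1.24 in MG and 1.61, 1.31 and 1.64 in MZ. The MZ ratios lay below all WT ratios, but the highest in MZ and the lowest in WT were the same after rounding (difference in log2 ratio -0.32, exact permutation test, two-sided, p = 0.1, adjusted p = 0.3). The ratio of Tet3 to Dnmt1 was between 0.66 and 1.19 in all 9 libraries, so the most abundant TET transcript and that of the maintenance enzyme were at like levels per length, and the groups overlapped. The ratio of Dppa3 to Uhrf1 was 38.3, 51.1 and 73.9 in WT, compared with 27.9, 29.9 and 65.3 in MG and 30.6, 40.4 and 33.8 in MZ, and the groups overlapped.

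**Figure D4:**
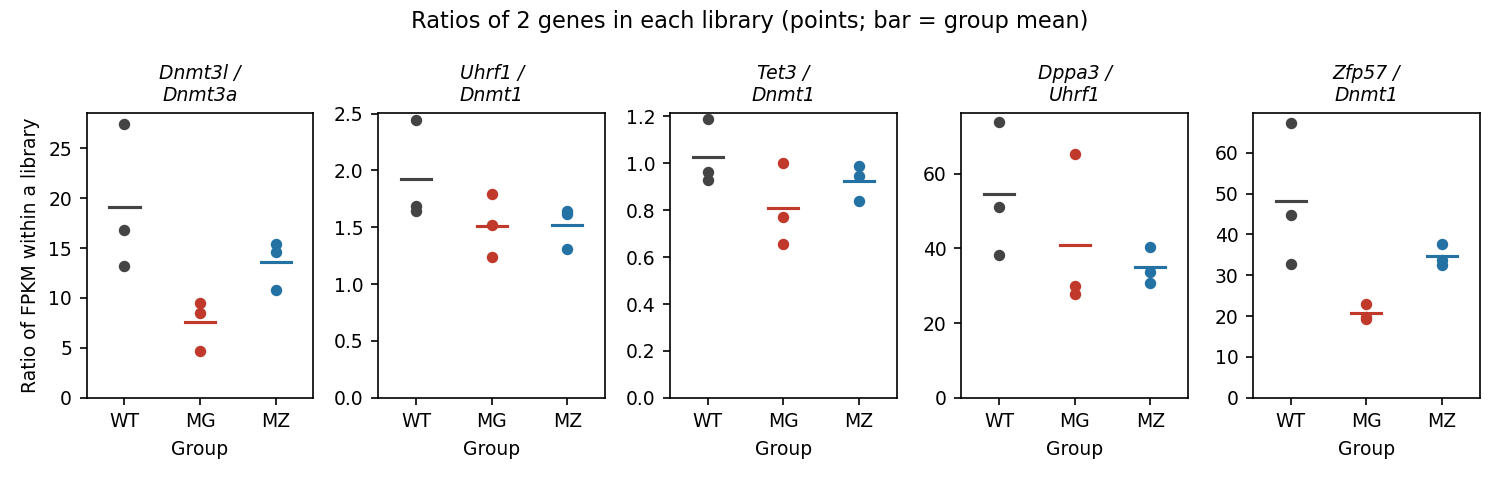
Ratio of the FPKM of 2 genes within each library (points) with group means (bars), 1 panel per pair and each axis from 0. For Dnmt3l over Dnmt3a and for Zfp57 over Dnmt1 the 3 MG points lie below all WT and MZ points, and for Tet3 over Dnmt1 and Dppa3 over Uhrf1 the groups overlap.

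Genes that work around these enzymes were taken as 5 lists. Of 24 recruiters and partners of the methyltransferases 23 were tested and 0 were called in any comparison by limma. The most abundant were Pcna, the replication clamp that binds DNMT1 (64.4 ± 5.53 FPKM in WT, SD, n = 3), and Kdm1b, the histone H3K4 demethylase needed for maternal imprints. Kdm1b had 52.0, 75.7 and 38.6 FPKM in WT, compared with 133.9, 122.5 and 91.4 in MG and 44.4, 50.2 and 54.6 in MZ, with MG above the other groups in every library. Its log2 fold change was 1.09 ± 0.25 (SE) against WT and 1.19 ± 0.25 against MZ (limma adjusted p = 0.091 and 0.078). It passed in 1 of 18 alternative fits against WT and in 3 of 18 against MZ, each time as higher in MG. In MZ against WT the smallest p of the list was that of Atrx, a chromatin remodeller (34.2 ± 3.43 FPKM in WT, 51.4 ± 2.94 in MZ, SD, n = 3 each, limma adjusted p = 0.73).

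Of 11 readers of methylated CpG 9 were tested, and 0 were called. They were low, with Mbd3 (5.92 ± 2.41 FPKM, SD, n = 3) and Zbtb33, which encodes the reader Kaiso (3.93 ± 1.52 FPKM), highest in WT. Zbtb33 was at 7.63, 8.69 and 10.1 FPKM in MG, above all WT and all MZ libraries, and did not pass (limma adjusted p = 0.16 against WT and 0.29 against MZ). Mbd2 was listed at 0 in all WT libraries and at 1.34, 2.58 and 4.28 FPKM in MZ (limma adjusted p = 0.60).

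Partners of the TET enzymes and base excision repair genes were listed under 28 symbols, of which 27 had a row. Of these 20 were tested and 0 called. The DNA glycosylase gene Neil3 (166.8 ± 15.6 FPKM) and the endonuclease gene Apex1 (69.8 ± 15.5 FPKM, SD, n = 3 each) were highest in WT. Ogt, whose product binds TET proteins and adds O-GlcNAc, had 8.08, 13.3 and 4.59 FPKM in WT, compared with 20.8, 18.4 and 19.1 in MG and 8.63, 5.46 and 9.83 in MZ (limma adjusted p = 0.14 against WT and 0.11 against MZ). Gadd45g was listed at 0 in all WT libraries and at 2.64, 1.70 and 2.12 FPKM in MZ (limma adjusted p = 0.66).

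S-adenosylmethionine is the methyl donor of these enzymes, and 16 of 20 genes of its supply were tested with 0 called. Mat2b, the regulatory subunit of methionine adenosyltransferase, had 2143 ± 178 FPKM in WT, 1455 ± 342 in MG and 2118 ± 67.6 in MZ (SD, n = 3 each), while Mat2a, the catalytic subunit, had 18.1 ± 2.81 FPKM in WT, 29.4 ± 7.29 in MG and 27.9 ± 4.75 in MZ. Mat2b was below all WT libraries in every MG library (limma adjusted p = 0.17). Mat2a was above all WT libraries in every MG and MZ library (limma adjusted p = 0.21 and 0.75). Adk was second with 154.5 ± 29.6 FPKM. Mthfd2, a mitochondrial folate enzyme, had 136.2 ± 22.8 FPKM in WT and 73.8 ± 10.7 in MG without overlap (limma adjusted p = 0.083). The log2 fold change of Mthfd2 was -0.87 and ran from -0.99 to -0.49 over 18 alternative fits. Without single libraries it ran from -0.99 to -0.75. Ahcyl1 had 12.3 ± 3.04 FPKM in MG and 4.25 ± 1.30 in MZ (limma adjusted p = 0.11), and Mthfd1 had 1.1 ± 1.0 in WT and 4.0 ± 1.9 in MZ (limma adjusted p = 0.73).

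Of 28 imprinted genes whose control regions are methylated in the oocyte 18 were tested and 0 called. Commd1 (336 ± 33.5 FPKM) and Blcap (299.4 ± 54.1 FPKM, SD, n = 3 each) were highest in WT. Blcap was at 189.4 ± 20.8 FPKM in MG without overlap with WT (limma adjusted p = 0.12). Its log2 fold change was -0.65 and ran from -0.77 to -0.26 over 18 alternative fits. Without single libraries it ran from -0.77 to -0.51. Mest was at 142.2 ± 29.7 FPKM in WT and 89.2 ± 11.9 in MZ without overlap (limma adjusted p = 0.62). Impact was at 5.98, 2.57 and 5.22 FPKM in MG and at 0, 2.14 and 0 in MZ (limma adjusted p = 0.14).

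Medians of the lists differed in size between comparisons, and that of the methyl donor genes also in sign. For MG against WT they were 0.33 for the recruiters and partners, 0.63 for the readers, 0.34 for the TET partners and repair genes, 0.31 for the methyl donor genes and 0.10 for the imprinted genes, beside 0.04 for all tested genes. At an unadjusted p under 0.05 in MG against WT, genes higher and lower in MG numbered 4 and 0 of 23 for the recruiters and partners, 1 and 0 of 9 for the readers, 2 and 2 of 20 for the TET partners and repair genes, 3 and 3 of 16 for the methyl donor genes and 2 and 2 of 18 for the imprinted genes. The shares over all tested genes were 8.43% higher and 9.31% lower. For MZ against WT the medians were 0.12, 0.16, 0.24, -0.06 and 0.03 in the same order, beside 0.01 for all tested genes. For MG against MZ they were 0.05, 0.30, 0.21, 0.11 and 0.20, beside 0.04. All these medians are on the deposited scale. With the same FPKM sum the median of all tested genes in MG against WT was 0.36. MG libraries also had more genes above 0 (11615 to 12097) than WT libraries (10924 to 11180). What this does to the medians of lists with many low genes was not tested.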

How the data were processed

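Per the labels' protocols, Smart-seq2 amplified the RNA and the NEBNext Ultra kit made the libraries. Per the series design and the submitters' processing notes, the authors aligned reads to mm10 with TopHat2 2.0.13 and computed the deposited FPKM with Cufflinks 2.2.1. The deposited table also gives the authors' Cuffdiff p-value, q-value and log2 fold change per pair of groups, and lists p = 1 for low genes, Dnmt3a and Dnmt3b among them. Of 24255 rows, 27 with a date in place of a symbol were left out. GENCODE M21 (GRCm38) held 95.4% of the symbols.

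FPKM are not counts, so log2(FPKM + 1) was fitted for the 10801 genes that reached 1 FPKM in 3 or more of the 9 libraries, with limma 3.58.1 in R 4.3.3 (eBayes with a variance trend, 6 residual degrees of freedom). Tests were two-sided, with Benjamini-Hochberg adjustment within a comparison. Fold changes on this scale understate low genes. Ratios of 2 genes were tested by exact permutation.

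Fragments were estimated from the FPKM of 1 fragment in 2220 genes with a single transcript of at least 1500 bp (77.8% to 87.3% of low values within 15% of it) and from the longest coding transcript, and are approximate. The fit was tested on simulated data.

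The members and lists were chosen with earlier results of these data known. Named are the 10 members and, per list, the 2 highest in WT, any gene called and the smallest p per comparison; Mat2a was named after its values were seen. Alternatives covered the pseudocount, filter, scaling, variance trend, libraries fitted, replicate number and leaving out each library.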

Additional observations from a re-analysis of the deposited data

How the results depend on the processing

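The count of called members was 0 in all 3 comparisons under each of the 18 alternatives, except that leaving out single libraries gave 0 to 1 for MG against MZ (1 without WT 1, Zfp57). The count over all tested genes was less stable. For MG against WT (37) it was 17 with no filter, 5 with only the 2 groups compared, 21 with quantile normalization and 66 with the same FPKM sum, and 3 to 32 without single libraries. For MZ against WT (4) it was 1 with a mean FPKM of at least 1, with quantile normalization and with the same sum, 2 with no filter and with a pseudocount of 0.1, 7 with no variance trend, and 0 to 6 without single libraries. For all genes called, MG against MZ (14), it was 9 with no filter and with no variance trend, 6 with a pseudocount of 0.1, 73 with only the 2 groups compared and 31 with the same sum, and 0 to 213 without single libraries (213 without WT 1, 210 without MG 1). The causes were not tested.

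With the replicate number as a block the counts were 13, 0 and 159 in the same order. The numbers do not pair the libraries: same-numbered libraries had deviations correlated between -0.07 and 0.07 over 9 pairs, and 1 of 9 libraries correlated best with its own number in both other groups. The block changed no call of a member.

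Signs turned for values that were not called. With the same FPKM sum these were Dppa3 in MG against WT (0.038), and Dnmt1 (0.17), Dnmt3b (0.12), Uhrf1 (0.16) and Dppa3 (0.29) in MG against MZ. With quantile normalization they were Dppa3 in MG against WT (0.36), and Uhrf1 (0.029) and Dppa3 (0.56) in MG against MZ. Without single libraries the values ran from -0.10 to 0.54 for Uhrf1 and -0.31 to 0.48 for Tet3 in MG against WT, and from -0.46 to 0.031 for Dnmt1 and -0.49 to 0.15 for Uhrf1 in MG against MZ. The log2 ratio differences for MG against MZ ran from -0.14 to 0.12 for Uhrf1 over Dnmt1 and from -0.26 to 0.34 for Dppa3 over Uhrf1. Dnmt3l and Zfp57 stayed negative in both comparisons with MG under all 18 alternatives, and Dnmt1 stayed positive in both comparisons with WT.

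Tet1, Tet2 and Dnmt3b rest on under 20 fragments per group, and Tet1 and Tet2 entered only the fit with no filter.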
